A study of Mus musculus with 8 samples.

Results

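The genes described here are the 8 AP-1 and Atf3 transcription factor genes Jun, Junb, Jund, Fos, Fosb, Fosl1, Fosl2 and Atf3, out of 19937 genes measured on the same arrays. A gene was a member if the platform's probe table gave a probeset its symbol and no other. Each of the 8 genes had 1 such probeset, 8 in all. The RNA came from NMuMG, an epithelial cell line of the mouse mammary gland that is widely used because TGFbeta drives it through an epithelial-mesenchymal transition. The 4 groups, each of 2 arrays, were cells with the vector carrying major satellite sequences after 8 h of TGFbeta, the same cells at 0 h, cells with the control vector after 8 h of TGFbeta, and the same cells at 0 h. Both lines were stable transfectants, so the control cells carried a vector too, and the labels do not say whether a line was 1 clone or a pool. Major satellite is the tandem repeat of mouse pericentromeric heterochromatin. The labels name no untreated arrays at 8 h, so TGFbeta and the hours in culture cannot be told apart.

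AP-1 is a family of dimeric transcription factors with a basic region that contacts DNA and a leucine zipper that joins the partners. Jun proteins pair with one another or with Fos proteins, Fos proteins need a Jun partner, and the dimers bind the motif TGACTCA or the related cyclic AMP response element TGACGTCA. Atf3 is a stress-induced relative that can pair with Jun proteins and often represses. MAP kinases raise the transcription and activity of several members, often within minutes and for a short time, and Smad3 and Smad4, which carry the TGFbeta signal into the nucleus, are known to act with AP-1 on shared promoters.

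The 250 bases before the RefSeq gene start (GRCm38.p6) were taken for 7 of the 8 genes, and Fosl1 had no entry. Those of the 3 genes with the largest rises and of Fos are shown, because these genes rose together after TGFbeta. Each is written 5' to 3' on the gene's own strand, and capitals mark every match, on either strand, to the 2 motifs just named, to TGACG, which opens the cyclic AMP response element, to the spaced pattern TGANNTCA, of which that element is a case, or to the TATA box letters TATAAA.
Jun, chr4:95052223-95052472, minus strand: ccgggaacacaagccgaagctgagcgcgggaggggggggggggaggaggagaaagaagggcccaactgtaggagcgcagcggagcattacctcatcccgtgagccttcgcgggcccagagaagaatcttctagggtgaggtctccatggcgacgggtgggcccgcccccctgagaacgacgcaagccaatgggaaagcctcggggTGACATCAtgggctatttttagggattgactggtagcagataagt
Junb, chr8:84978749-84978998, minus strand: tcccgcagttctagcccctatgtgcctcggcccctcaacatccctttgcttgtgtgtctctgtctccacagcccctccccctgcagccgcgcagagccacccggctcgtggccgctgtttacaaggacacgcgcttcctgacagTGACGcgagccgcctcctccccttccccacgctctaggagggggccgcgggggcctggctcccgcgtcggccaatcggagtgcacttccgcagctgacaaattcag
Fosl2, chr5:32136222-32136471, plus strand: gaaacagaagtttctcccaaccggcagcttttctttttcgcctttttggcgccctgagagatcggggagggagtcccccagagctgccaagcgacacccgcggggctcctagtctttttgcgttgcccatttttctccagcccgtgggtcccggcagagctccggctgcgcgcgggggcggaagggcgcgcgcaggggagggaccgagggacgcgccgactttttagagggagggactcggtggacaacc
Fos, chr12:85473640-85473889, plus strand: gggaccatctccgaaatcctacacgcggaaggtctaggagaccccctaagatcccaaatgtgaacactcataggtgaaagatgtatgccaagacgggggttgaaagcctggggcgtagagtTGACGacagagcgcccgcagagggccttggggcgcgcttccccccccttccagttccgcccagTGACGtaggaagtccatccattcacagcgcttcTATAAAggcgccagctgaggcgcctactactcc
Neither TGACTCA nor TGACGTCA was found in any of the 7 windows, against 4.46% and 1.55% of the 32851 promoter windows of the same length in the RefSeq table. TGACG was found in 4 of the 7 (Junb, Fos, Fosb and Atf3), against 17.8% of all windows. In Fos it stood at 129 to 125 and at 66 to 62 bases before the start. The 4 windows with TGACG held 58.4% (Fos) to 68.8% (Fosb) G and C, against a median of 52.4% over all windows. Windows of like G and C content were not searched apart. TGANNTCA was found in Jun, as TGACATCA at 45 to 38 bases before the start, and in Jund, as TGAAATCA, against 11.9% of all windows. The short Smad-binding motif CAGAC was found in 0 of the 7 and in 42.2% of all windows, and TATAAA in Fos and in 12.4% of all windows. A match says only that these letters are present, and the Fosl2 window held none of the 6.

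Values are log2 expression values as deposited (the processing notes name RMA, robust multi-array averaging), so a difference of 1 is a 2-fold change. The titles carry 1 of 2 codes, each on 1 array of every group, which gave the arrays their replicate number, 1 or 2. Where a group's values are given as a pair, that of number 1 stands first. The arrays of number 2 lay lower for all 8 genes, by 0.33 for Junb to 0.62 for Fosl1 on average, against a median difference of -0.08 over all genes. Nothing in the labels says that the replicates were separate cultures, so a p-value here is set against array spread alone, which may be technical. With the replicate number in the model, that is the spread left after the number is taken out, steadied by the spread of all genes. Of the epithelial markers, Krt8, Krt18 and Cdh1 were at 12.72 or higher on every array, and Epcam was at 6.53 to 7.16 and Esrp1 at 5.90 to 6.28. The 10 fibroblast markers ranged from Lum at 4.41 to 5.11 to Twist2 at 9.42 to 10.76, and the 9 endothelial and immune markers from Kdr at 5.96 to 6.45 to Cd68 at 8.53 to 9.10, with the pan-leukocyte marker Ptprc at 6.35 to 6.53. In the average TGFbeta response of both lines, in which 11.2% of all genes rose and 13.1% fell, 3 of 11 epithelial markers rose and 1 fell, 3 of 10 fibroblast markers rose and 1 fell, and 1 of 9 endothelial and immune markers rose. Without the replicate number in the model, 0 epithelial markers rose and 1 fell, 1 fibroblast marker rose and 1 fell, and 0 of the endothelial and immune markers passed. The mean log2 level of the fibroblast list was 7.44 to 7.50 in treated against 7.28 to 7.45 in untreated major satellite cells, and 7.34 to 7.51 in treated against 7.23 to 7.49 in untreated control vector cells. The epithelial list was at 9.80 to 10.01 in treated against 9.70 to 9.91 in untreated major satellite cells, and at 9.72 to 9.94 in treated against 9.65 to 9.95 in untreated control vector cells. The part of these markers in the results was not tested. Fewer cells of a type and less RNA per cell cannot be told apart in such bulk RNA.

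The first comparison asked how the AP-1 genes responded to 8 h of TGFbeta. Of the 8 genes, 6 rose, 1 fell and 1 did not pass, in major satellite cells and in control vector cells alike. Jun, Junb and Fosl2 rose about as far as doubling or beyond, Fos, Fosb and Atf3 rose by smaller amounts, Fosl1 fell, and Jund did not pass. These calls come from limma, with a term for the replicate number in the model, and an adjusted p under 0.05 over all genes. The same call was made for 6.89% of all genes upward and 8.38% downward in major satellite cells, and for 6.92% upward and 7.63% downward in control vector cells. Without the replicate number in the model, 0 of the 8 passed in either line, and 1.09% of all genes in major satellite cells and 1.07% in control vector cells did.

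Jun encodes c-Jun, the founding partner of AP-1 dimers. Its values in major satellite cells were 10.87 and 10.49 at 8 h, against 9.81 and 9.01 at 0 h. In control vector cells they were 10.87 and 10.71 at 8 h, against 10.06 and 9.12 at 0 h. All 4 treated arrays lay above all 4 untreated arrays. The rise was 1.27 ± 0.17 (SE) in major satellite cells (limma adjusted p = 0.00119, n = 2 arrays a group) and 1.20 ± 0.17 in control vector cells (limma adjusted p = 0.00157). As a fold this was 2.42 in major satellite cells and 2.30 in control vector cells.

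Junb encodes a Jun protein that activates many promoters less strongly than c-Jun. It had 10.60 and 10.59 at 8 h in major satellite cells, against 9.78 and 9.17 at 0 h. Control vector cells had 10.66 and 10.45 at 8 h, against 9.81 and 9.30 at 0 h. Here too the treated and untreated arrays did not overlap, and the 4 treated arrays spanned less than the 4 untreated ones. Junb rose by 1.12 ± 0.14 in major satellite cells (limma adjusted p = 0.000826) and by 1.01 ± 0.14 in control vector cells (limma adjusted p = 0.00147), or 2.17-fold and 2.01-fold.

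Jund encodes the Jun protein that is known for steady expression in many cells. It had 10.74 and 10.38 at 8 h in major satellite cells, against 10.77 and 10.43 at 0 h, and 10.85 and 10.41 at 8 h in control vector cells, against 10.92 and 10.31 at 0 h. The treated and untreated arrays overlapped, and the replicate number set the values apart more than the treatment did. The average response of both lines was -0.01 ± 0.07 (limma adjusted p = 0.911), with a 95% confidence interval of -0.17 to 0.14. That interval lies below those of the 6 genes that rose, of which the lowest bound was 0.38, for Fosb.

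**Figure D1:**
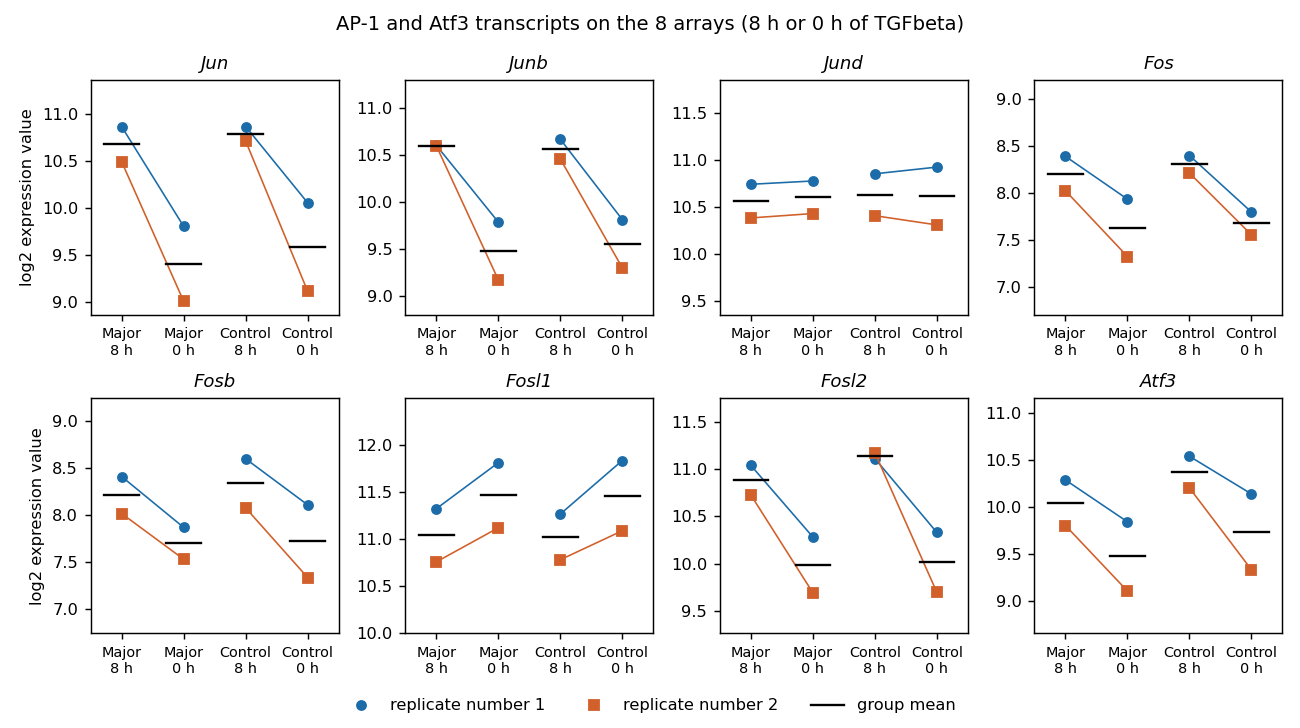
Log2 expression values (vertical axis, a window of equal width for every gene) of the 8 genes in the 4 groups: major satellite cells (Major) and control vector cells (Control) at 8 h and 0 h of TGFbeta. Points are arrays, coloured by replicate number and joined within a line and a number, and bars are group means of 2 arrays. Treated points lie above their untreated partners for Jun, Junb, Fos, Fosb, Fosl2 and Atf3, below them for Fosl1, and level with them for Jund.

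Fos encodes c-Fos, the prototype of a rapidly and briefly induced gene. Its values were 8.39 and 8.03 at 8 h in major satellite cells, against 7.94 and 7.33 at 0 h. In control vector cells they were 8.40 and 8.21 at 8 h, against 7.80 and 7.56 at 0 h. All 4 treated arrays lay above all 4 untreated arrays. Fos rose by 0.58 ± 0.11 in major satellite cells (limma adjusted p = 0.00774) and by 0.63 ± 0.11 in control vector cells (limma adjusted p = 0.00508), or 1.49-fold and 1.55-fold.

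Fosb, whose product is the closest relative of c-Fos in the family, had 8.41 and 8.02 at 8 h in major satellite cells, against 7.87 and 7.53 at 0 h. Control vector cells had 8.60 and 8.08 at 8 h, against 8.11 and 7.34 at 0 h. Treated arrays lay above untreated arrays within each replicate number and overlapped across numbers. The rise was 0.51 ± 0.11 in major satellite cells (limma adjusted p = 0.0147) and 0.62 ± 0.11 in control vector cells (limma adjusted p = 0.00602).

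Fosl1 and Fosl2 encode Fra-1 and Fra-2, Fos relatives without the strong activation domain of c-Fos. Fosl1 had 11.32 and 10.75 at 8 h in major satellite cells, against 11.81 and 11.12 at 0 h, and 11.26 and 10.78 at 8 h in control vector cells, against 11.83 and 11.09 at 0 h. It was lower in treated cells within each replicate number, and treated and untreated arrays overlapped across the numbers. Fosl1 fell by 0.43 ± 0.09 in major satellite cells (limma adjusted p = 0.0149) and by 0.44 ± 0.09 in control vector cells (limma adjusted p = 0.0127), which left 0.744 and 0.738 of the untreated level. Fosl2 had 11.04 and 10.73 at 8 h in major satellite cells, against 10.28 and 9.69 at 0 h, and 11.12 and 11.18 at 8 h in control vector cells, against 10.33 and 9.69 at 0 h. Its treated and untreated arrays did not overlap. Fosl2 rose by 0.90 ± 0.15 in major satellite cells (limma adjusted p = 0.00431) and by 1.14 ± 0.15 in control vector cells (limma adjusted p = 0.0013), or 1.87-fold and 2.20-fold. The 2 Fra genes thus moved in opposite directions in both lines.

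Atf3 had 10.29 and 9.80 at 8 h in major satellite cells, against 9.84 and 9.11 at 0 h. Control vector cells had 10.54 and 10.20 at 8 h, against 10.14 and 9.33 at 0 h. As for Fosb, treated arrays lay above untreated arrays within each replicate number only. Atf3 rose by 0.57 ± 0.12 in major satellite cells (limma adjusted p = 0.012) and by 0.64 ± 0.12 in control vector cells (limma adjusted p = 0.00714), or 1.49-fold and 1.55-fold.

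**Figure D2:**
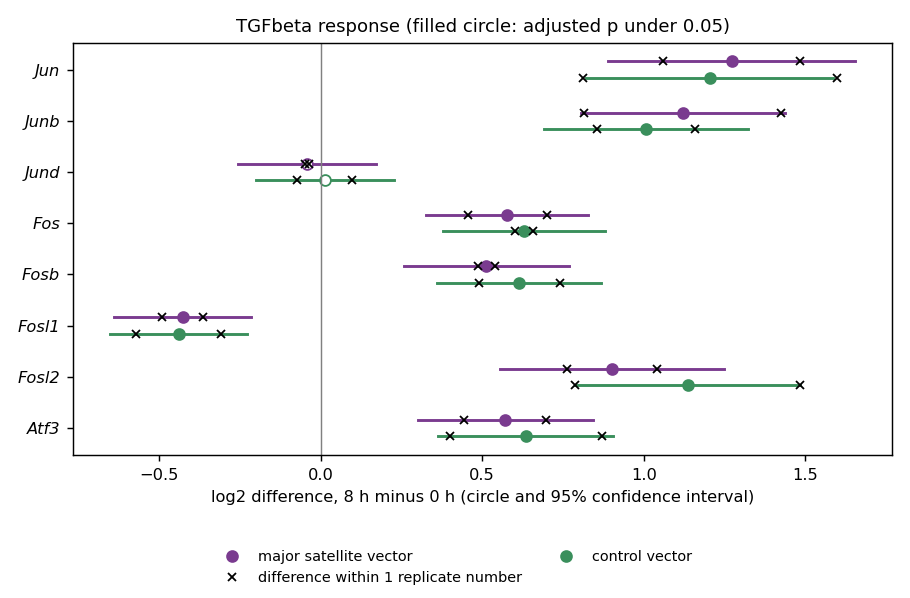
TGFbeta response of each gene as the log2 difference of 8 h minus 0 h (horizontal axis), in major satellite cells (upper of each pair) and control vector cells (lower). Circles are the fitted differences with 95% confidence intervals, filled where the adjusted p was under 0.05, and crosses are the differences within replicate number 1 or 2. Jun, Junb and Fosl2 lie at 0.90 to 1.27, Fos, Fosb and Atf3 at 0.51 to 0.64 and Fosl1 at -0.43 and -0.44, and the intervals of Jund include 0.

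Over both lines, Jun rose by 1.24 ± 0.12 (limma adjusted p = 8.2e-05), Junb by 1.06 ± 0.10 (6.49e-05), Fosl2 by 1.02 ± 0.11 (0.00015), Atf3 by 0.60 ± 0.08 (0.000759), Fos by 0.60 ± 0.08 (0.000481) and Fosb by 0.56 ± 0.08 (0.00077), whereas Fosl1 fell by 0.43 ± 0.07 (0.00123). The median of the 8 genes was 0.60, against 0.02 over all genes, of which 11.2% rose and 13.1% fell in this comparison. The 8 genes were chosen with earlier results of these data known, so this contrast is no test of them as a group. Without the replicate number in the model, Junb (limma adjusted p = 0.0233) and Fosl2 (0.0376) passed and Jun had an adjusted p = 0.053, beside 4.83% of all genes that passed. The 4 treated arrays all lay above the 4 untreated ones for Jun, Junb, Fos and Fosl2, as for 7.38% of all genes, and all below for 0 of the 8, as for 7.37% of all genes. Within both replicate numbers they did so for 6 of the 8 genes, as for 17.1% of all genes, and the reverse held for Fosl1, as for 16.6% of all genes. The average response passed for the same 7 genes when any 1 of the 8 arrays was left out. Within 1 line, leaving out 1 array lowered the count of 7 to 4 without control vector 8 h replicate 2, to 3 without major satellite 0 h replicate 2 and to 2 (Jun and Junb) without major satellite 8 h replicate 2.

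The second comparison asked whether the vector with major satellite sequences altered the AP-1 genes. None of the 8 genes passed at 0 h or at 8 h of TGFbeta, or in the average of both. At an unadjusted p under 0.05 there were 0 at 0 h and 1, Atf3, at 8 h and in the average, beside 654 of the 19937 genes at 0 h, 1298 at 8 h and 1071 in the average. Over all genes, 0.0301% passed at each time and 0.0853% in the average, all of them lower in major satellite cells. Without the replicate number in the model, also 0 of the 8 genes passed, and 0.00502% of all genes did at each time and 0.01% in the average.

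Atf3 lay lower in major satellite cells than in control vector cells in every pair of arrays, by 0.25 and 0.40 at 8 h and by 0.30 and 0.23 at 0 h. The average difference was -0.29 ± 0.08, or 0.816-fold, with a 95% confidence interval of -0.49 to -0.10 on the log2 scale (limma adjusted p = 0.826). Jun and Fosl2 were also lower in all 4 pairs, each with 1 pair that differed by nearly nothing, as were 8.11% of all genes, with average differences of -0.14 ± 0.12 for Jun and -0.14 ± 0.11 for Fosl2. None of the 8 was higher in all 4 pairs, as 8.45% of all genes were. An average difference as low as that of Atf3, or lower, was found for 72 of the 19937 genes. For the other 5 genes the average differences ran from -0.07 to 0.01, with intervals between -0.25 and 0.20, so that a difference larger than those bounds lay outside the 95% intervals. Fosl2 at 8 h was 10.73 in major satellite cells against 11.18 in control vector cells on the arrays of number 2, and 11.04 against 11.12 on those of number 1. This difference of -0.26 ± 0.15 did not pass (limma adjusted p = 0.77).

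**Figure D3:**
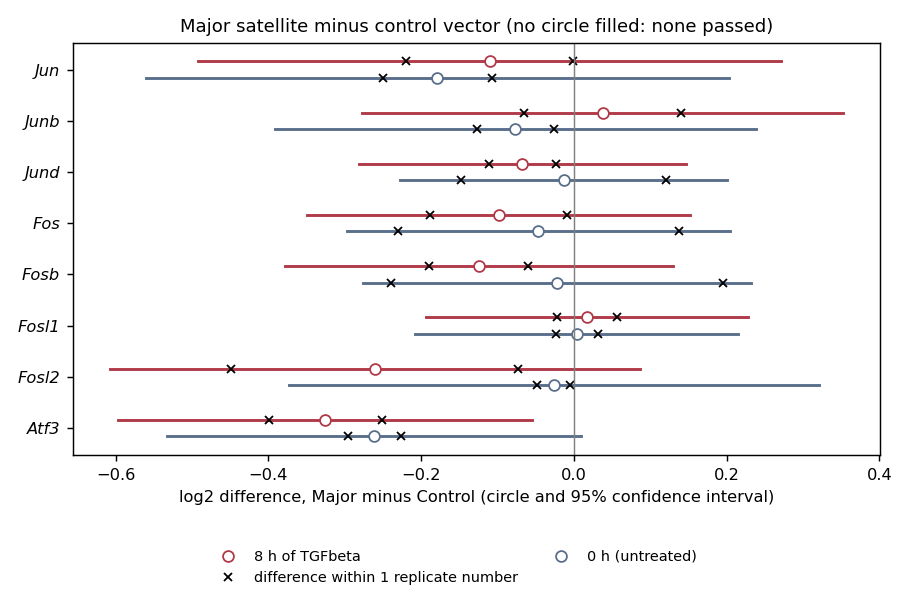
Log2 difference of major satellite minus control vector cells (horizontal axis) for each gene at 8 h of TGFbeta (upper of each pair) and at 0 h (lower). Circles are fitted differences with 95% confidence intervals, open because none passed, and crosses are the differences within replicate number 1 or 2. All 4 crosses of Atf3 lie below 0. Its interval excludes 0 at 8 h (-0.60 to -0.0551) and includes it at 0 h (-0.53 to 0.00929). The intervals of the other 7 genes include 0 at both times.

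The TGFbeta response itself was compared between the lines, as the response in major satellite cells minus that in control vector cells. None of the 8 genes passed (limma adjusted p = 0.999 for each), 0 had an unadjusted p under 0.05, and of all genes 0 passed and 658 had an unadjusted p under 0.05. The differences in response were 0.07 ± 0.24 for Jun, 0.11 ± 0.20 for Junb, -0.23 ± 0.22 for Fosl2 and -0.06 ± 0.17 for Atf3. Their 95% confidence intervals were wide, for example -0.73 to 0.26 for Fosl2 and -0.47 to 0.61 for Jun, so a difference in response of up to about those bounds could not be told from none with these arrays. Ordered by group mean, the 2 treated groups came first for the 6 genes that rose and the 2 untreated groups first for Fosl1. The difference between the 2 lines at 1 time, which are neighbours in that order, did not pass for any of them. For Jund the 4 group means lay between 10.56 and 10.63.

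The genes around AP-1 were then counted from lists, over the average response of both lines. The lists were drawn up with earlier results of these data known, and the counts stand beside 11.2% of all genes that rose and 13.1% that fell. Among 24 other immediate early genes, which like Fos are induced fast by growth factors, 8 rose, 6 fell and 10 did not pass, with a median of 0.11 (without the replicate number 5 rose and 1 fell). Sgk1, a kinase gene, rose by 1.19 ± 0.07, Klf10, a zinc finger factor gene known as a TGFbeta target, by 1.06 ± 0.08, and Ccn2, which encodes connective tissue growth factor, by 0.98 ± 0.09. Egr1, a zinc finger factor often induced together with Fos and chosen here after its value was seen, fell by 0.58 ± 0.06 (limma adjusted p = 0.000104, and 0.124 without the replicate number). The immediate early genes thus did not all move with Fos.

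Among 18 MAP kinase phosphatases and feedback inhibitors, which limit the kinases that act on AP-1, 9 rose, 4 fell and 5 did not pass, with a median of 0.21 (without the replicate number 2 rose and 2 fell). Dusp6, a phosphatase of ERK, fell by 1.20 ± 0.09 and Spry1, an inhibitor of receptor tyrosine kinase signalling, by 1.13 ± 0.09, while Spred2, a relative of the Sprouty inhibitors, rose by 1.01 ± 0.07 and the phosphatase gene Dusp7 by 0.71 ± 0.06. Of 28 measured genes of the kinase cascades, 6 rose, 3 fell and 19 did not pass, with a median of 0.02. Without the replicate number 2 rose and 1 fell. Map2k1, the ERK kinase MEK1, rose by 0.81 ± 0.06 and Map3k4 by 0.63 ± 0.08, and Rps6ka5 fell by 0.85 ± 0.10 and Map3k5, the stress kinase ASK1, by 0.74 ± 0.09. The other 4 listed genes of the cascades were not analysed here.

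Other basic leucine zipper genes moved in both directions. Of 28 measured, 4 rose, 8 fell and 16 did not pass, with a median of -0.01 (without the replicate number 0 rose and 2 fell). Cebpa, a factor of differentiated cells, fell by 1.01 ± 0.06, Atf6, a sensor of unfolded protein, by 0.55 ± 0.07 and Nfe2l2, the oxidative stress factor Nrf2, by 0.55 ± 0.08. Bach1, a repressor that pairs with small Maf proteins, rose by 0.47 ± 0.07.

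Of 24 measured genes known from textbooks as AP-1 targets, 12 rose, 6 fell and 6 did not pass, with a median of 0.26 (without the replicate number 4 rose and 2 fell). The cytokine genes Il11 and Lif rose by 1.80 ± 0.09 and 0.77 ± 0.07 and Vegfa, an angiogenic growth factor gene, by 0.79 ± 0.07. The collagenase gene Mmp13, a classical AP-1 target, fell by 1.37 ± 0.11. Of 18 measured genes of the stress response in which Atf3 takes part, 7 rose, 6 fell and 5 did not pass, with a median of 0.03 (without the replicate number 3 rose and 1 fell). Gadd45g, a growth arrest gene, rose by 1.43 ± 0.12 and Id1, a helix-loop-helix inhibitor that Atf3 and Smad3 together repress in human epithelial cells, fell by 0.67 ± 0.07. As a check of the treatment, Smad7, the feedback inhibitor of the TGFbeta receptor, rose by 1.20 ± 0.07, and of 15 measured TGFbeta/Smad targets 9 rose and 3 fell (without the replicate number 8 rose and 1 fell). Ddit3 and Atf4 stood in both the leucine zipper and the stress lists, Klf10 and Ccn2 in both the immediate early and the Smad lists, and Id1 in both the stress and the Smad lists.

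**Figure D4:**
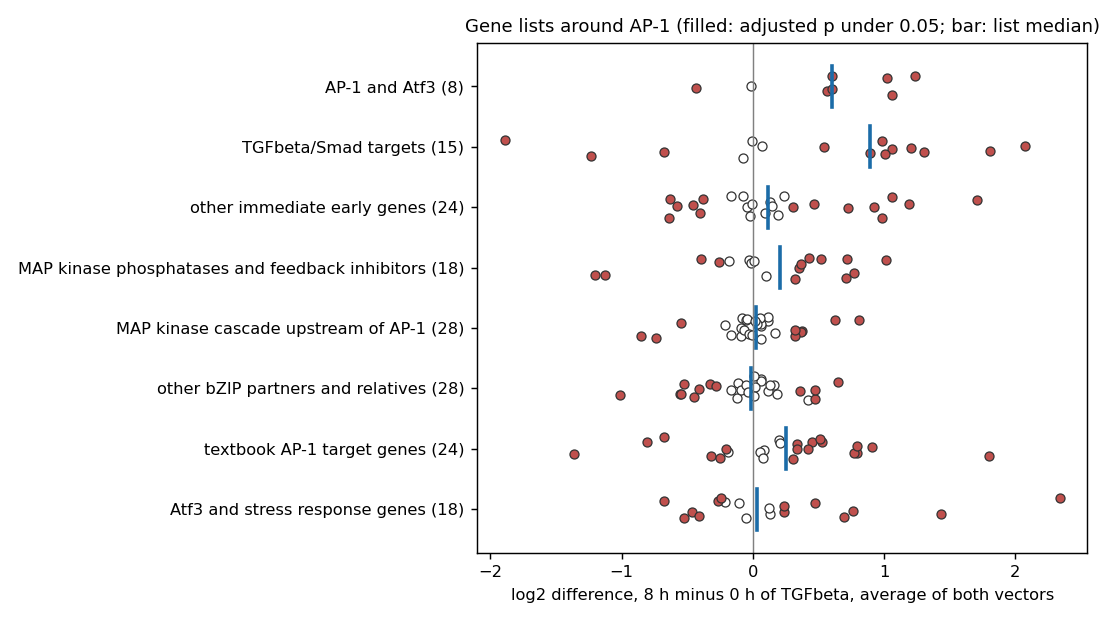
Average log2 TGFbeta response of both lines (horizontal axis) for each measured gene of 8 lists, with the number of genes in brackets. Points are genes, filled where the adjusted p was under 0.05, and blue bars are list medians. The AP-1 and Atf3 genes have a median of 0.60, the Smad targets 0.89, and the other 6 lists lie between -0.01 and 0.26 with members on both sides of 0.

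The genes most like each member were found by Pearson correlation over the 8 arrays, with values centred within the replicate number, among 15969 genes. For Jun these were Npr2 (r = 0.998), Fbln2 and Adamts6, for Junb St3gal2 (r = 0.998), Myzap and Ghr, and for Fosl2 Slco3a1 (r = 0.998), Map4 and Actn1. For Fos they were Phf8 (r = 0.998), Ppp1r15a and Pdgfra, for Fosb Phldb3 (r = 0.998), Trib3 and Soga1, and for Atf3 Relb (r = 0.994), Igfbp7 and Dzip1l. For Fosl1, which fell, they were Tjap1 (r = 0.997), Epha2 and P3h2, and for Jund Gja5 (r = 0.982), Ccl19 and Scml4. Among the members themselves, the correlations of the 6 genes that rose were 0.874 to 0.988 with one another and -0.788 to -0.912 with Fosl1. Those of Jund with the other 7 were -0.214 to 0.205. The arrays share the TGFbeta treatment and the replicate numbers, so these values describe the 8 arrays and carry no test.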

How the data were processed

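Expression was measured in total RNA of NMuMG cells on Affymetrix gene arrays after biotin labelling, per the labels' protocols. The deposited values are log2 expression per probeset. Per the submitters' processing notes, the authors used RMA and limma; settings and genome build are not given in the sources used here. Of 34760 probesets, 21640 had 1 gene symbol. Symbols were updated through Entrez identifiers with the RefSeq table of GRCm38.p6, and for 954 genes with several probesets the brightest stood for the gene, giving 19937 genes. Left out were 1321 probesets with several symbols, none of them a member's, and 11799 outside the probe table.

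Differences were fitted on all genes and all 8 arrays in R 4.3.3 by limma 3.58.1 (a linear model of 1 mean per group, 3 residual degrees of freedom, moderated by eBayes), two-sided, with Benjamini-Hochberg adjustment over all genes of a comparison. The replicate number, taken from the shared title codes, was a block, because the rule for these genes pairs arrays by that code. The pairing was checked by correlating, across genes, the deviations of same-numbered arrays from their group means, which gave 0.758 to 0.874 over 6 pairs of groups. The script was tested on simulated data that were built with a shift between the replicate numbers. That test cannot show whether the block suits these arrays. Array medians lay at 7.72 to 7.76 for number 1 and 7.88 to 7.92 for number 2, and the number of arrays limits the precision. Members and lists were chosen with earlier results of these data known. Named genes besides the members were up to 4 passing genes of a list with the smallest p, Smad7, and the 3 genes most like each member. One other gene due by this rule is not reported here. The alternatives covered the block, normalization, probesets, a filter on dim genes, the variance prior and each array left out.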

Additional observations from a re-analysis of the deposited data

How the results depend on the processing

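The limits lie mainly in the 2 arrays per group and in the replicate number. Without the replicate block, 0 of the 8 AP-1 and Atf3 genes passed the TGFbeta comparison in either line and 2 in the average, and over all genes 218 passed in major satellite cells, 214 in control vector cells and 962 in the average. The unblocked comparisons of the vectors called 1 gene at 8 h, 1 at 0 h and 2 in the average. With all 34760 probesets in the fit, 3 of the 8 passed in major satellite cells (of 1799 probesets) and 4 in control vector cells (of 1550), all 7 still passed in the average, and 33 probesets passed the average vector comparison. Quantile normalization called 3 genes between the vectors at 0 h and the trended, robust prior 1. Centring, quantile normalization, averaged probesets, the filter at a mean of 6 and that prior left the counts of 7 members as they were in all 3 TGFbeta comparisons.

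With 1 array left out, the lone array of that group was assumed to vary like the other groups. Then 2 to 7 members passed in major satellite cells, 4 to 7 in control vector cells and 7 in the average. Over all genes 1228 to 3020 passed in major satellite cells, 1202 to 3161 in control vector cells and 3498 to 4860 in the average. The lower counts within a line came without replicate 2 of either of its groups (1429 and 1228 in major satellite cells, 1202 and 1240 in control vector cells, for 8 h and 0 h), without major satellite 0 h replicate 1 (1690) and without control vector 8 h replicate 1 (1902). Between the vectors 1 to 107 genes passed at 8 h, 2 to 9 at 0 h and 8 to 49 in the average, and 0 to 17 for the difference in response. The highest of these, 107, 49 and 17, came without major satellite 8 h replicate 1. Jun and Junb passed in both lines in all 14 alternatives other than the unblocked fit, and Fosl2 in 14 in control vector cells and 12 in major satellite cells.

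No difference that passed changed sign. Differences that did not pass did so in part. Jund was 0.00637 in the average response and Fosl1 -0.000459 between the vectors at 0 h under quantile normalization, and Jund 0.00814 between the vectors at 0 h with centred arrays. With 1 array left out, the response of Jund ran from -0.10 to 0.0224 in major satellite cells, -0.10 to 0.13 in control vector cells and -0.0717 to 0.0441 in the average. Major minus control at 8 h ran over these ranges: Jun -0.38 to 0.16, Junb -0.18 to 0.26, Fos -0.21 to 0.0114, Fosl1 -0.0742 to 0.11 and Fosl2 -0.55 to 0.0269. At 0 h the ranges were Jun -0.43 to 0.0705, Junb -0.26 to 0.11, Jund -0.13 to 0.10, Fos -0.22 to 0.13, Fosb -0.20 to 0.15, Fosl1 -0.0791 to 0.0869 and Fosl2 -0.20 to 0.15. In the average they were Junb -0.13 to 0.0907, Jund -0.0983 to 0.0175, Fos -0.16 to 0.0137, Fosb -0.16 to 0.0152, Fosl1 -0.0351 to 0.0561 and Fosl2 -0.29 to 0.000287. For the difference in response they were Jun -0.21 to 0.34, Junb -0.11 to 0.34, Jund -0.17 to 0.0617, Fos -0.22 to 0.12, Fosb -0.28 to 0.0755, Fosl1 -0.078 to 0.10, Fosl2 -0.52 to 0.0533 and Atf3 -0.23 to 0.11. The cause was not tested.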

Other observations

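The size of the response differed between the replicate numbers. Averaged over both lines, the difference of 8 h minus 0 h was 1.54 within number 2 and 0.94 within number 1 for Jun, and 1.29 within number 2 and 0.84 within number 1 for Junb. For Fosl2 it was 1.26 within number 2 and 0.77 within number 1, and for Atf3 0.78 within number 2 and 0.42 within number 1. Fos (0.68 within number 2, 0.53 within number 1) and Fosb (0.61 within number 2, 0.52 within number 1) differed less, and the fall of Fosl1 was smaller within number 2 (-0.34) than within number 1 (-0.53). For Jun the 2 numbers lay closer at 8 h (10.87 and 10.49 in major satellite cells, 10.87 and 10.71 in control vector cells) than at 0 h (9.81 and 9.01 in major satellite cells, 10.06 and 9.12 in control vector cells). Among the 750 genes with an average rise of at least 0.5, 63.7% changed more within number 2, and among the 922 with an average fall of at least 0.5, 83.3% did, beside 60.7% of all genes. With 1 array of each number per group, this difference was not tested.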
